A study of Mus musculus with 2 samples.

Results

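Mir106b-25 and Mir106a-363 are the paralogs of the Mir17-92 cluster: groups of miRNA genes that arose by duplication and are each transcribed as one precursor. The first holds Mir106b, Mir93 and Mir25, and the second holds Mir106a, Mir18b, Mir20b, Mir19b-2, Mir92-2 and Mir363. These 9 genes were taken by symbol from the 1973 miRNA genes counted. Small RNA was sequenced from limb of healthy B6NCrl mouse embryos at embryonic day 13.5, both sexes pooled, as 2 biological replicates with the same donor label and no treatment, mutant or other tissue. Nothing in the labels says how many embryos a replicate pooled, so the spread between the libraries may be in part technical.

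A miRNA is cut from a hairpin precursor and binds messenger RNAs mainly through its seed, bases 2 to 8 from the 5′ end. Members of these clusters carry 4 seeds. The Mir17 seed belongs to miRNAs known to lower the cell cycle inhibitor Cdkn1a, and the Mir92 seed to miRNAs known to lower the cell death factor Bcl2l11. Mir106b-25 is transcribed with Mcm7, a subunit of the replicative DNA helicase. In mice the loss of either paralog cluster alone is tolerated, loss of Mir106b-25 worsens the defects of embryos without Mir17-92, and human carriers of a MIR17HG deletion have short digits.

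The mature arms that carry these seeds are shown because reads of the same or nearly the same arm decide which gene can be counted. They are RefSeq sequences on GRCm38.p6, written 5′ to 3′ with the seed in capitals, and all 9 members were matched. The counts are per hairpin, so which arm was read is not known.

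The Mir17 seed group (AAAGUGC), with 4 members and their Mir17-92 counterparts:
miR-106b-5p: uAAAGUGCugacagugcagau
miR-93-5p: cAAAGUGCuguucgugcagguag
miR-106a-5p: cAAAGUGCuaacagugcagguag
miR-20b-5p: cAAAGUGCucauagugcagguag
miR-17-5p: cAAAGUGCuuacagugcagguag
miR-20a-5p: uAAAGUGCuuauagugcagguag

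The Mir92 seed group (AUUGCAC), with 3 members, the last 2 of them in the X-linked cluster, where Mir92-2 makes the same miR-92a-3p arm as Mir92-1:
miR-25-3p: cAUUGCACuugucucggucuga
miR-92a-3p: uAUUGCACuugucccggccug
miR-363-3p: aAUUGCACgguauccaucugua

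The Mir18 (AAGGUGC) and Mir19 (GUGCAAA) seed groups, with 1 member each, Mir18b and Mir19b-2:
miR-18b-5p: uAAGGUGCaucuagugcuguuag
miR-18a-5p: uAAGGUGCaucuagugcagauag
miR-19b-3p: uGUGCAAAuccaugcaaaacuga

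Outside the seed the arms differed by few bases. With positions counted from 1 at the 5′ end and the base of the Mir17-92 arm first, miR-106a-5p differed from miR-17-5p by U10A alone, and miR-18b-5p from miR-18a-5p by A18U and A20U. The arm of Mir20b differed from that of Mir20a by U1C and U10C. Mir106b differed from Mir17 by C1U, U10G and G20A over the 21 bases compared, and Mir25 from Mir92-1 by U1C, C14U and C18U. Mir363 shares the seed of Mir92-1 but differed from it at 11 of 21 bases.

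For 2 members the arm is identical to one of Mir17-92: 0 bases differed between Mir19b-2 and Mir19b-1, and 0 between Mir92-2 and Mir92-1. The hairpins are shown with the longest stretch common to both in capitals, 25 bases for the Mir19b pair and 22 for the Mir92 pair, since a read inside that stretch fits both genes.
Mir19b-2: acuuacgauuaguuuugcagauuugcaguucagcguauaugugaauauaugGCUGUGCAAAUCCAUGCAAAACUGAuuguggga
Mir19b-1: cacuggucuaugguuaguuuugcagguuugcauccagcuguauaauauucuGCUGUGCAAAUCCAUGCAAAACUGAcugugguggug
Mir92-2: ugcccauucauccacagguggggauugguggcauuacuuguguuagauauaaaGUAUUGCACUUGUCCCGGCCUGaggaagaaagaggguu
Mir92-1: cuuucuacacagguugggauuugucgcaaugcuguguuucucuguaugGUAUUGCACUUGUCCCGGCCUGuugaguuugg

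The whole of the 23-base miR-19b-3p and of the 21-base miR-92a-3p lies inside these stretches. In the layout of the count tables a read that maps to several places enters no gene, and such reads made up 30.8% of replicate 1 and 29.5% of replicate 2. The counts of Mir19b-2 and Mir92-2, and those of Mir19b-1 and Mir92-1, are therefore uncertain and may be too low. Ratios and shares that use any of these genes, sums of Mir17-92 among them, carry the same limit. The other 7 members share at most 17 bases with any annotated miRNA gene, a length reached by Mir18b and Mir18 (the gene of miR-18a). Over the whole arm, however, Mir106a differs from Mir17 by only 1 base, and Mir18b from Mir18 and Mir20b from Mir20a by 2. Mir20b also differs by 2 from Mir17 and from Mir106a. Mir106b differs by 3 from Mir17 and from Mir106a, and Mir93 by 3 from Mir20b. How reads with mismatches were placed is not known, and misplaced reads were not tested for. Copies elsewhere in the genome were not searched.

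The 3 hairpins of Mir106b-25 lie within 498 bases on the minus strand of chromosome 5 (mm10): Mir106b at 138165737 to 138165818, Mir93 at 138165523 to 138165610 and Mir25 at 138165321 to 138165404. All 3 fall in intron 13 of the 15-exon coding transcript of Mcm7, and Mir93 and Mir25 also lie wholly in exon 1 of a short transcript annotated as a retained intron. The 6 hairpins of Mir106a-363 span 875 bases on the minus strand of the X chromosome, from Mir106a at 52742503 to 52742567 down to Mir363 at 52741693 to 52741767, with 46 to 138 bases between neighbours. Mir18b lies at 52742331 to 52742413, Mir20b at 52742113 to 52742192, Mir19b-2 at 52741983 to 52742066 and Mir92-2 at 52741838 to 52741928. Mir106a overlaps an exon of all 4 annotated transcripts of the noncoding gene Kis2 without lying wholly inside one, and the other 5 overlap no annotated transcript of another gene. The hairpins of Mir106b-25 were richer in G and C, at 57.3%, 55.7% and 63.1% for Mir106b, Mir93 and Mir25, than those of Mir106a-363, which ran from 38.1% (Mir19b-2) to 47.3% (Mir92-2).

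Replicate 1 held 12407140 reads, 5927321 of them counted in sense direction in a miRNA gene, and replicate 2 held 12657170 reads and 6003632 such counts. Levels are given as CPM, the sense count of a gene scaled to 1000000 of those gene counts. The mature arms are 21 to 24 bases long, so CPM was compared between genes without correction for length. The order of the 9 members was the same per hairpin base. How evenly the libraries captured different miRNAs was not tested. Levels, orders and ratios between genes are therefore those of counts and need not equal those of RNA amounts. Of 21 listed cell type markers that were counted, 18 were detected. Summed over their lists, limb patterning markers had 95141 and 86683 CPM in replicates 1 and 2, cartilage 48690 and 48605 CPM, endothelium 20830 and 19637 CPM, ectoderm 15105 and 17444 CPM, and skeletal muscle 3817 and 4016 CPM. Markers of blood had 443 and 445 CPM, of liver 152 and 164 CPM, of neurons 114 and 143 CPM, and of pluripotent cells 54.8 and 48.6 CPM. The neuronal sum was all Mir137, with Mir124a-1 listed at 0, and Mir290a was also at 0. Mir206 gave 3741 and 3940 CPM of the skeletal muscle sum in replicates 1 and 2. Mir1a-1, also on the muscle list, had 1 count in each library and was not detected. Mir124a-2 and Mir124a-3, which were not on the lists, also had 0 counts in both libraries. Loss of marker reads that fit other genes as well was not tested. Counts of Mir1a-1 and Mir124a-1 at or near 0 therefore need not mean that their mature miRNAs were absent. In whole limb, fewer cells of a type and less RNA per cell cannot be told apart.

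All 9 members reached the detection limit of 10 sense counts per library, against 18.9% of the 1973 genes. Mir106b-25 was the abundant paralog and Mir106a-363 the scarce one. Mir106b-25 held 2.14% of sense counts in replicate 1 (95% exact Clopper-Pearson interval 2.13% to 2.15%) and 2.03% in replicate 2 (2.02% to 2.05%), or 2.09% ± 0.08 (SD, n = 2). Mir106a-363 held 0.0804% in replicate 1 (0.0781% to 0.0827%) and 0.0564% in replicate 2 (0.0545% to 0.0583%), or 0.068% ± 0.017 (SD, n = 2). These intervals cover counting error only, and for both clusters the 2 libraries lay outside each other's interval. Within a library Mir106b-25 had 26.7 and 36.1 times the counts of Mir106a-363 in replicates 1 and 2, a log2 ratio of 4.96 ± 0.31 (SD, n = 2). A two-sided exact permutation test over 2 libraries cannot give a p below 0.5, so none was made of these ratios.

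**Figure D1:**
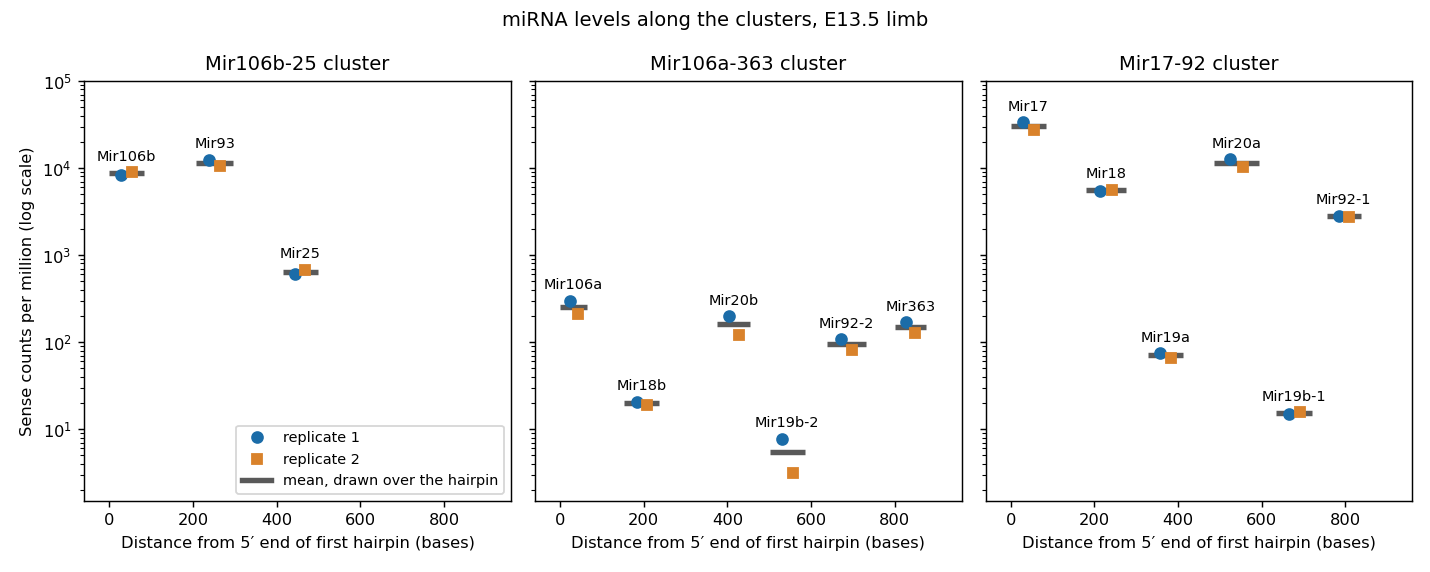
Sense CPM (log axis) of each miRNA gene against its distance in bases from the 5′ end of the first hairpin of its cluster, for Mir106b-25, Mir106a-363 and Mir17-92. Circles are replicate 1, squares replicate 2 and bars the mean over the hairpin's length. Mir106b and Mir93 stand at 8702 and 11541 CPM and Mir25 at 642 CPM, all above the 6 genes of Mir106a-363, which lie between 5.46 and 256 CPM.

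Mir93, which carries the Mir17 seed, was the most abundant member. It had 73700 counts in replicate 1 and 63925 in replicate 2, or 12434 and 10648 CPM, and ranked 20th of all genes by mean. Mir106b, with the same seed, had 49731 and 54113 counts, or 8390.1 and 9013 CPM, and ranked 24th. Mir93 was higher in both libraries, by 1.48-fold in replicate 1 and 1.18-fold in replicate 2, and the values of the 2 genes did not overlap.

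Mir25, the Mir92-seed gene of the Mcm7 intron, lay far below its neighbours. It had 3591 and 4077 counts in replicates 1 and 2, or 606 and 679 CPM, and ranked 113th. Mir93 had 20.5 and 15.7 times as many counts as Mir25 in these libraries. Mir25 made up 2.83% and 3.34% of the counts of its cluster in replicates 1 and 2, Mir93 58.0% and 52.3%, and Mir106b 39.2% and 44.3%. Mir106b also had 13.8 and 13.3 times the counts of Mir25, while each of the 3 genes differed by at most 1.17-fold between the libraries. The difference of Mir93 from Mir106b in replicate 2, at 1.18-fold, was about as large as that spread.

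In Mir106a-363 the first gene, Mir106a, was also the highest. Mir106a, of the Mir17 seed group, had 1777 and 1275 counts in replicates 1 and 2, or 299.8 and 212 CPM, and ranked 145th. Mir20b, of the same seed, had 1175 and 731 counts, or 198 and 122 CPM. Mir106a exceeded Mir20b in each library, by 1.51-fold and 1.74-fold.

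Mir363, the last gene of the cluster and a carrier of the Mir92 seed, had 1005 and 756 counts in replicates 1 and 2, or 169.6 and 126 CPM. Its order against Mir20b was not resolved, since Mir20b was the higher in replicate 1 and Mir363 in replicate 2. Mir92-2, with the same seed and an uncertain count, had 637 and 488 counts, or 107 and 81.3 CPM.

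Mir18b and Mir19b-2 were the scarcest members. Mir18b had 123 and 115 counts in replicates 1 and 2, or 20.8 and 19.2 CPM, and shares at most 17 bases with another miRNA gene. Mir19b-2, whose seed arm cannot be placed uniquely, had 46 and 19 counts, which is 7.76 CPM (exact Poisson 95% interval 5.68 to 10.4) and 3.16 CPM (1.91 to 4.94). Both were above the 0.506 and 0.4997 CPM that a count of 0 allows in replicates 1 and 2.

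From the highest mean to the lowest the order was Mir93, Mir106b, Mir25, Mir106a, Mir20b, Mir363, Mir92-2, Mir18b and Mir19b-2. In 7 of the 8 neighbouring pairs both libraries of the higher gene lay above both libraries of the lower, the exception being Mir20b and Mir363. Over the 372 detected genes of the series the same held for 9.16% of 371 neighbouring pairs. Neighbours among all detected genes differed by a median log2 of 0.03 and neighbours among the members by 1.00, so the shares describe sets of very different density.

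Set against Mir17-92, both paralogs held fewer counts in sum. Mir106b-25 stood at a log2 ratio of -1.36 in replicate 1 and -1.18 in replicate 2, a mean of -1.27 ± 0.13 (SD, n = 2). By medians of the members the direction turned, to 1.06. Mir17-92 includes Mir19a and Mir19b-1, with means of 70.4 and 15.3 CPM. Mir106a-363 stood at -6.09 and -6.35, a mean of -6.22 ± 0.18, and thus had 68.3 and 81.6 times fewer counts than Mir17-92 in replicates 1 and 2. Of the counts in the 3 clusters together, Mir106b-25 held 27.8% and 30.4% in replicates 1 and 2, Mir106a-363 1.04% and 0.843%, and Mir17-92 71.2% and 68.7%.

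Each member was set against a Mir17-92 gene of the same seed. Mir93 against Mir20a had log2 ratios of -0.02 and 0.04 in replicates 1 and 2, which changed sign between the libraries. The arm of Mir93 differs by 4 bases from that of Mir20a and by 4 from that of Mir17, and against Mir17 its log2 ratios were -1.45 and -1.35. Mir106b lay below Mir17 at -2.01 and -1.59, and Mir25 below Mir92-1 at -2.23 and -2.01. The X-linked genes lay much lower: Mir106a against Mir17 at -6.82 and -7.00, Mir20b against Mir20a at -5.99 and -6.41 (against Mir17, from which it also differs by 2 bases, at -7.42 and -7.80), and Mir18b against Mir18 at -8.04 and -8.20. Mir363 against Mir92-1 stood at -4.07 and -4.44. The ratios of Mir25 and Mir363 rest on the count of Mir92-1, which may be too low.

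In the remaining pairs both genes make the same arm. Mir92-2 against Mir92-1 had log2 ratios of -4.72 and -5.07 in replicates 1 and 2, and Mir19b-2 against Mir19b-1 of -0.95 and -2.31. Reads of the shared arm that map to both genes enter neither, and their part in these ratios was not tested.

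**Figure D2:**
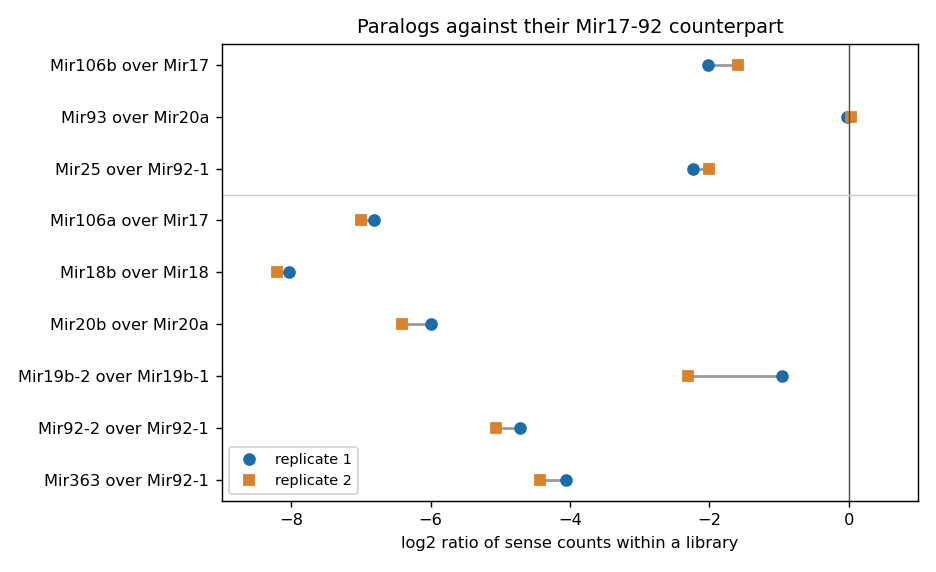
The log2 ratio of sense counts of each paralog gene over a Mir17-92 gene of the same seed within a library, with circles for replicate 1 and squares for replicate 2, and Mir106b-25 above Mir106a-363. Mir93 over Mir20a lies at -0.02 and 0.04 in replicates 1 and 2, and the other pairs lie between -0.95 (Mir19b-2, replicate 1) and -8.20 (Mir18b, replicate 2).

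By seed, Mir106b-25 held its largest share in the Mir17 group. That group held 67859 CPM in replicate 1 and 57528 CPM in replicate 2 over 7 genes with the seed in RefSeq. Mir106b and Mir93 gave 30.7% and 34.2% of it in replicates 1 and 2, Mir106a and Mir20b gave 0.734% and 0.581%, and Mir17 and Mir20a gave 68.6% and 65.2%. The seventh gene, Mir6383, had 0 counts in both libraries.

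The Mir92 seed group was smaller, at 4203 and 4084 CPM in replicates 1 and 2, and more mixed. Mir25 gave 14.4% and 16.6% of it, Mir92-2 and Mir363 together 6.59% and 5.07%, and Mir92-1 67.6% and 66.8%. Genes outside the clusters gave the other 11.4% and 11.5%: Mir92b with 266 and 244 CPM in replicates 1 and 2, and Mir32 with 213 and 226 CPM, while Mir367 had 0 counts in both. Each of Mir92b and Mir32 alone thus stood above Mir363 in both libraries, and above Mir92-2 as counted. In the Mir18 group Mir18b gave 0.380% and 0.338% of counts, and in the Mir19 group Mir19b-2 gave 7.96% and 3.73%. These sums count both arms of each hairpin. They leave out reads that map to both Mir92-1 and Mir92-2, or to both Mir19b-1 and Mir19b-2. Shares in the Mir92 and Mir19 groups are therefore uncertain.

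**Figure D3:**
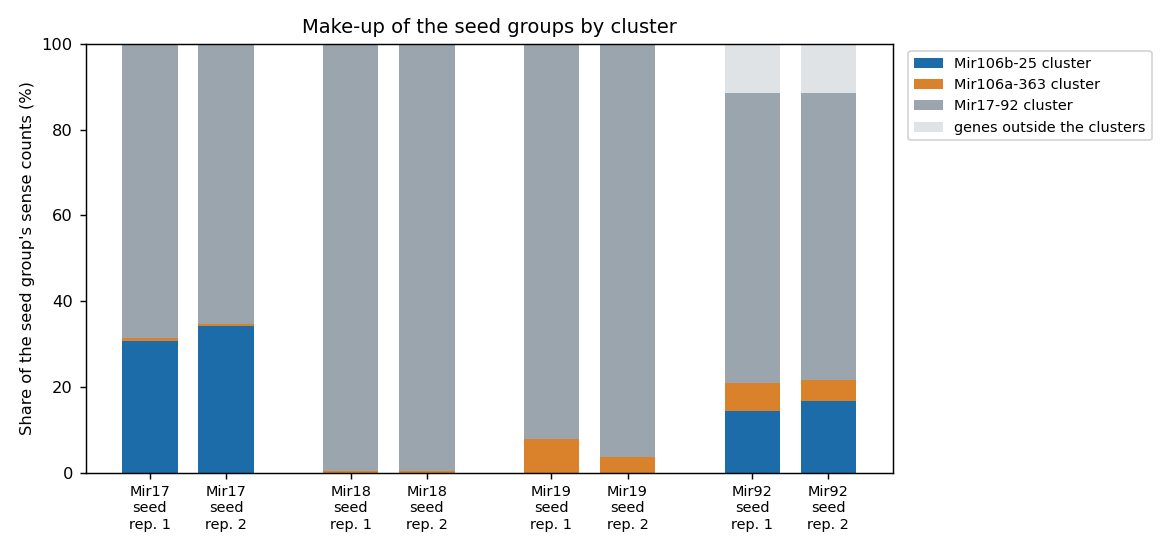
Share (%) of the sense counts of each seed group held by the genes of Mir106b-25, Mir106a-363, Mir17-92 and genes outside them, as stacked bars for replicates 1 and 2. Mir106b-25 gives 30.7% and 34.2% of the Mir17 seed group and 14.4% and 16.6% of the Mir92 seed group, and the largest shares of Mir106a-363 are 7.96% (Mir19) and 6.59% (Mir92), both in replicate 1. Reads that map to several genes are left out, so the Mir92 and Mir19 shares are uncertain.

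Relatives with a related, shifted seed are known as miRNAs of pluripotent cells, and they were scarce here. Of 9 listed genes of the Mir302 and Mir290 clusters that were counted, 5 were detected, against 18.9% of the 1973 genes. Mir292a, also listed, was not matched by name and was left out. A gene named Mir292 had 8 and 13 counts in replicates 1 and 2, which is below the detection limit in replicate 1. Mir302a led with 54.8 and 48.6 CPM in replicates 1 and 2, followed by Mir302d with 44.9 and 37.1 CPM. These values lie below Mir92-2 and above Mir18b.

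Between the libraries, all 6 genes of Mir106a-363 had more CPM in replicate 1 than in replicate 2, the median of their log2 ratios was 0.46, and the share of the cluster was 1.43-fold higher. In Mir106b-25 only Mir93 was higher in replicate 1 (log2 ratio 0.22), Mir106b and Mir25 being lower at -0.10 and -0.16, and the share of the cluster was 1.05-fold higher. Over the 444 genes tested, 234 (52.7%) had more CPM in replicate 1, and the median of all log2 ratios was 0.02. In Mir17-92 4 of 6 genes had more CPM in replicate 1, Mir17 at a log2 ratio of 0.32 and Mir20a at 0.28 among them, and the share of the cluster was 1.19-fold higher. No test compared the clusters with each other in this respect. Of the marker lists, those of ectoderm, skeletal muscle, neurons and liver summed to fewer CPM in replicate 1. Those of limb patterning, endothelium and pluripotent cells summed to more, the last on Mir302a alone with 325 and 292 counts. The sums were nearly equal for cartilage, at 48690 and 48605 CPM in replicates 1 and 2, and for blood, at 443 and 445 CPM. The part of tissue make-up in the ratios between the libraries was not tested.

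The largest ratio among members above 100 CPM was that of Mir20b, at a log2 of 0.70. Of the 190 genes with a mean of at least 100 CPM, 1 had a higher ratio than Mir20b, 7 a higher one than Mir106a (0.50) and 11 a higher one than Mir363 (0.43). Their median absolute log2 ratio was 0.13. Of the other 36 detected genes of the X chromosome 18 were higher in replicate 1, and their median log2 ratio was 0.00.

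Mir106a held 37.3% and 37.7% of the cluster's counts in replicates 1 and 2, Mir363 21.1% and 22.3%, Mir92-2 13.4% and 14.4%, Mir20b 24.7% and 21.6%, and Mir18b 2.58% and 3.40%. Mir19b-2 held 0.966% and 0.561%, on 46 and 19 counts. Of these 6 genes Mir18b had the smallest log2 ratio between the libraries, at 0.12.

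In a two-sided exact binomial test of replicate 1 against replicate 2, with Benjamini-Hochberg adjustment over the 444 genes tested, 1 of the 9 members was called at an adjusted p under 0.05 and an absolute log2 ratio of at least 1. Over all tested genes 3.38% were called, and 2.48% were called as higher in replicate 1. The member was Mir19b-2, higher in replicate 1 at a log2 ratio of 1.27 (adjusted p = 0.00246, exact binomial test), a value that rests on 46 and 19 counts. Without the minimum ratio 8 of 9 members passed, 6 of them higher in replicate 1, against 40.3% of tested genes in either direction and 22.1% as higher in replicate 1. Mir106b, with 49731 and 54113 counts in replicates 1 and 2, passed at a log2 ratio of -0.10 (adjusted p = 7.75e-30, exact binomial test), while Mir18b, with 123 and 115 counts, did not at 0.12 (adjusted p = 0.723, exact binomial test). This test sets 2 libraries of one group side by side and covers counting error only.

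**Figure D4:**
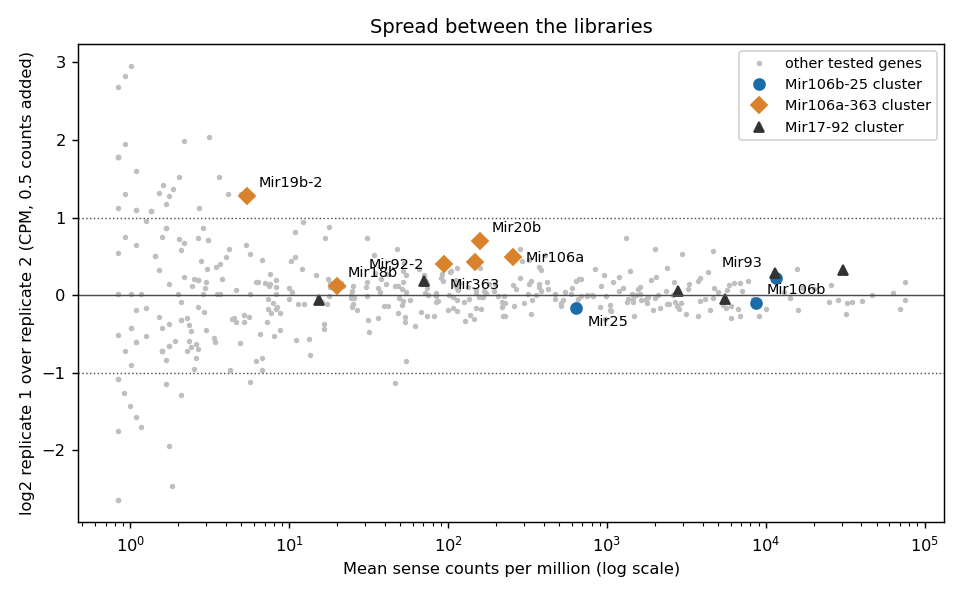
The log2 ratio of replicate 1 over replicate 2 (0.5 counts added) against mean sense CPM (log axis) for the 444 tested genes, with the genes of Mir106b-25, Mir106a-363 and Mir17-92 marked and dotted lines at the minimum ratio of 1. The 6 genes of Mir106a-363 all lie above 0, from 0.12 (Mir18b) to 1.27 (Mir19b-2), and those of Mir106b-25 between -0.16 and 0.22.

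Antisense reads were all but missing at the members. Mir20b had 1 antisense count in replicate 1, and all other members had 0 in both libraries. All genes of Mir17-92 also had 0 in both libraries, so this is not particular to the members. Over all genes there were 194161 and 202556 antisense counts in replicates 1 and 2. How many other genes had none was not counted.

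Genes with the most similar levels were named by the distance of log2(CPM + 1) over the 2 libraries, leaving out the 3 clusters. Nearest to Mir93 were Mir487b (13161 and 12761 CPM in replicates 1 and 2, distance 0.27), Mir411 (distance 0.40) and Mir10b (distance 0.45). Nearest to Mir106a were Mir16-2 (309 and 219 CPM, distance 0.06), Mir155 (distance 0.19) and Mir92b (distance 0.26). With 2 libraries of one group this likeness is one of level only.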

How the data were processed

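MicroRNA libraries of 2 limb replicates were analysed. The authors deposited whole-number read counts per hairpin gene on mm10, the build per the labels, in 3 unnamed columns laid out as STAR gene counts (either strand, sense, antisense), with GENCODE M4 named in the deposited text. No source used here names the aligner or its settings. The 4 lines of reads in no gene stayed out of library sizes: unmapped reads were 17.2% and 18.6% of replicates 1 and 2, multimapping reads 30.8% and 29.5%, and mapped reads in no gene by the sense count 4.24% and 4.48%.

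Names and positions came from GENCODE M21 on the same build (1894 of 1973 identifiers matched), sequences from RefSeq. Genes with at least 10 counts over both libraries were compared by an exact binomial test in SciPy 1.17.1 (0.5 counts added to ratios), since 1 group allows no model of groups. The test was also run on simulated Poisson counts with known changes. Those counts hold counting error only, so the run does not bear on the spread between the real libraries. The genes named are the members, Mir17-92, listed or annotated seed relatives and the 3 genes nearest in level to the top gene of each cluster. Members and lists were chosen with earlier results of these data known. edgeR 4.0.16 and DESeq2 1.42.0 gave the alternative scaling.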

Additional observations from a re-analysis of the deposited data

How the results depend on the processing

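The shares depend on what they are divided by. With all reads as denominator Mir106b-25 held 0.994% and Mir106a-363 0.0326%, and with multimapping reads added to the gene counts 1.28% and 0.0418%. Without genes that share 18 or more bases with another, Mir106b-25 held 2.62% of the remaining counts. Ratios between clusters depend on how members are combined. Between medians of the members the log2 ratio of Mir106b-25 over Mir106a-363 was 6.20, that of Mir106b-25 over Mir17-92 turned to 1.06, and that of Mir106a-363 over Mir17-92 was -5.13. Without the most abundant gene of each cluster they were 4.47, -1.09 and -5.56. Each of the 3 ratios kept its direction in each library alone, with both strands counted and without genes sharing 18 or 22 bases. Of all genes, 15 were called between the libraries, 12 to 15 under other scalings, filters and pseudocounts, and 179 without the minimum ratio. Mir19b-2 was the member called in each of these settings that kept the minimum ratio, with adjusted p from 0.00216 to 0.00396 (exact binomial test). The number of detected members was 8 where 100 counts were asked for in each library. No paired analysis was possible because the series holds 1 group. Low counts limit Mir18b and Mir19b-2 most. For Mir19b-2 depth is not the only limit, since reads that map to both it and Mir19b-1 enter neither gene.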
